A study of Caenorhabditis elegans with 22 samples.

Results

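The response to loxapine was compared between Caenorhabditis elegans carrying ser-5(vq1), an allele of a serotonin receptor gene, and the wild-type strain N2. The groups were taken from the library titles, which place 13 of the 22 libraries of the series in the 4 groups needed. They are ser-5(vq1) with loxapine (2 libraries), ser-5(vq1) with DMSO (3), N2 with loxapine (3) and N2 with DMSO (5). All were whole day 4 adults grown in liquid medium with carbenicillin and fungizone, fed OP50 bacteria killed by X-rays, and sterilised with 0.12 mM FUDR, an inhibitor of DNA synthesis, at the L4 stage. Loxapine was present at 50 µM for 72 h from day 1 of adulthood, and its solvent DMSO was kept under 0.3%. The measure is an interaction, the log2 fold change of loxapine over DMSO in ser-5 minus the same fold change in N2, for 16431 tested genes of the 19598 in the table. A positive interaction means a higher fold change in ser-5 than in N2.

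Loxapine is a tricyclic antipsychotic that binds dopamine and serotonin receptors in mammals. SER-5 is a G protein-coupled receptor for serotonin, which in worms acts on feeding, egg laying, movement and body fat. Worms that take up foreign compounds often raise cytochrome P450 genes such as the cyp-35 family, whose enzymes oxidise such compounds, together with conjugating enzymes and P-glycoprotein pumps that move compounds out of cells. The comparison asks which parts of the N2 response to the drug are also measured when ser-5 is mutated.

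Total counts per library were 31286699 to 32103442 for ser-5 with loxapine, 25652111 to 39765014 for ser-5 with DMSO, 29369955 to 37918172 for N2 with loxapine and 29844987 to 38691188 for N2 with DMSO. The ser-5 transcript gave 27 counts in the ser-5 loxapine libraries (0.426 CPM, which are counts scaled to library size, with an exact Poisson 95% interval of 0.281 to 0.620) and 32 in the ser-5 DMSO libraries (0.313 CPM). It gave 203 counts in N2 with loxapine (2.07 CPM) and 317 in N2 with DMSO (1.78 CPM). The transcript was thus lower in both mutant groups and was not absent from them, and the labels do not say what vq1 removes. Defining markers of muscle, pharynx, neurons, intestine, hypodermis, germline and oocytes were detected in all groups, as the whole-body label states. Whether replicates came from different cultures is not in the labels, and p-values reflect only how far these samples scatter, which may be technical. N2 DMSO replicates 2 and 5 (chi-square per degree of freedom 4.94), and 3 and 6 (3.86), differed less than other pairs within a group (11.87 to 63.9). They were kept as separate libraries, and errors computed with them may therefore be too small. How the authors treated strand and reads shared by paralogs is not stated, which leaves the values of gene families and overlapping genes uncertain.

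No gene passed the test of the interaction. By edgeR's quasi-likelihood test with Benjamini-Hochberg adjustment, 0 of 16431 genes (0.00%) reached an adjusted p under 0.05, and the lowest adjusted p was 0.0763, for pgp-5. At an unadjusted p under 0.05 there were 1561 genes (9.50%), of which 863 had a higher fold change in ser-5 (5.25%) and 698 a lower one (4.25%). The library series, a run of consecutive library numbers in the labels, was also entered as a block in an alternative fit, which called 43 genes, and the Wald test of DESeq2 called 20. The replicate block called 1, ilys-3. Each of the 43 and of the 20 genes differed against the direction of its N2 change, and 14 genes were in both sets. That direction is near the general share and is not a result about these genes. Of the 1561 genes with an unadjusted p under 0.05, 1558 differed against N2 and 3 with it, and the interaction subtracts the N2 value. Since no gene passed in the fit reported here, differences between strains are given as values with their errors, not as calls, unless an alternative is named.

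The responses within each strain differed in the number of genes past the threshold. In ser-5, 8 genes passed (0.0487%), all higher with loxapine. In N2, 3101 genes passed (18.9%), 1724 higher (10.5%) and 1377 lower (8.38%). The median standard error over all tested genes was 0.23 on the log2 scale in ser-5 and 0.19 in N2, so the ser-5 comparison had less precision, with 2 libraries with loxapine. With N2 cut to the same number of libraries as ser-5, from the same library series, 146 genes passed in N2 and 8 in ser-5. The N2 count was 1129 with the near-duplicate controls summed, 556 without N2 loxapine replicate 2, 1618 without replicate 3, 1759 without N2 DMSO replicate 2 and 1779 without replicate 5. The ser-5 count was 3 without ser-5 loxapine replicate 1. A count is not a test of a difference between strains, and that test is the interaction above.

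The genes that passed in N2 were looked up in ser-5, whose libraries are separate from those of N2. Of the 1724 genes raised in N2, 1462 had a positive log2 fold change in ser-5, and their median was 0.10 in ser-5 against 0.45 in N2. Of the 1377 genes lowered in N2, 987 had a negative value in ser-5, with a median of -0.10 in ser-5 against -0.65 in N2. Same-sign genes thus made up 84.8% of the raised and 71.7% of the lowered set, against 62.6% of all tested genes. The size was mostly smaller. In ser-5, 120 of the raised and 148 of the lowered genes had at least 50% of their N2 log2 fold change. Of all 16431 tested genes, 4650 did. At an unadjusted p under 0.05, 566 of the raised and 653 of the lowered genes had an interaction against their N2 change. Gene lists with many N2 calls are to be read beside these counts. Choosing genes by their N2 values inflates the N2 side, so the opposite choice is given beside it. At an unadjusted p under 0.05, ser-5 had 321 genes (1.95%) and N2 had 5494 (33.4%). The 102 of the 321 that were higher (0.621%) had a median of 0.85 in ser-5 and 0.54 in N2. The 219 lower ones (1.33%) had -0.58 in ser-5 and -0.25 in N2. In N2, 62 of the 102 and 99 of the 219 had at least 50% of their ser-5 log2 fold change. By this opposite choice 9035 of all 16431 tested genes did. Across all 16431 genes, which are not independent replicates, the log2 fold changes of both strains had a Pearson correlation of 0.257, with an SD of 0.367 in ser-5 and 0.520 in N2. All tested genes had a median of -0.00 in ser-5, -0.07 in N2 and 0.03 in the interaction.

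**Figure D1:**
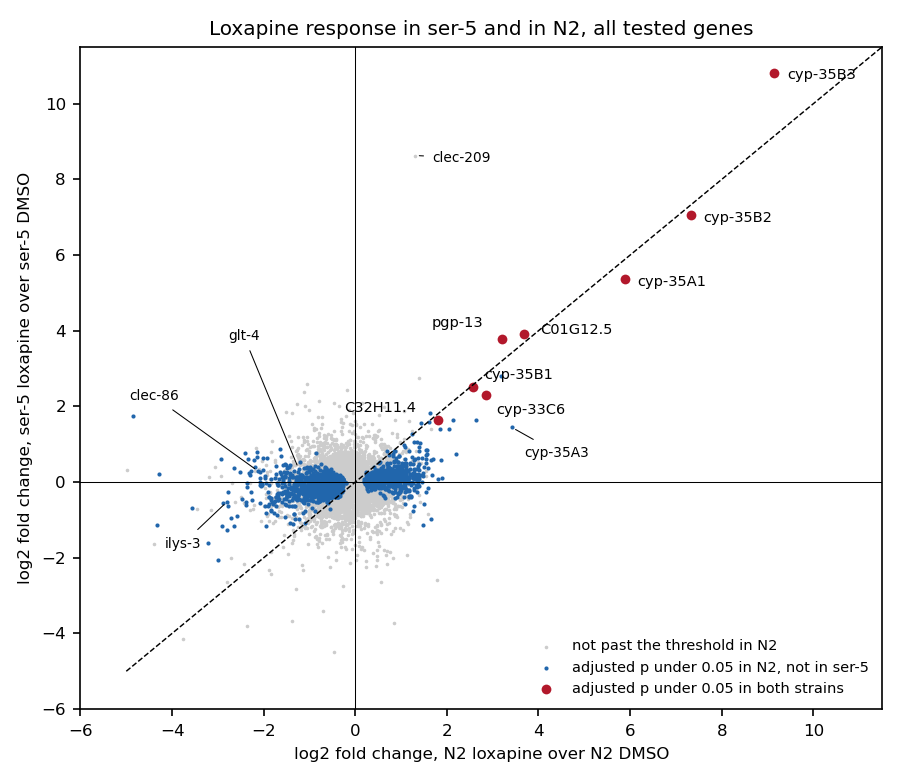
Log2 fold change of loxapine over DMSO in ser-5 (vertical axis) against that in N2 (horizontal axis) for 16431 tested genes, with a dashed line where both are equal. The 8 genes past the threshold in both strains (red) lie near the line, while the other genes past it in N2 (blue) spread along the horizontal axis with ser-5 values close to 0.

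All 8 genes raised in ser-5 were also raised in N2, and 4 of them belong to the cyp-35 family. Of the 10 tested cyp-35 genes, 4 rose in ser-5, where 0.0487% of all tested genes rose. In N2, 8 rose (80.0%, against 10.5% of all tested genes). The medians were 1.55 in ser-5 and 2.36 in N2, with none lowered in either strain. Of the 4 that rose in ser-5, 3 lie side by side on chromosome V, in positions of the Ensembl annotation of the WBcel235 assembly joined by gene identifier.

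The gene cyp-35B3 (bases 3945353 to 3947044 of chromosome V) had 44.97 and 38.5 CPM in ser-5 with loxapine, against 0.00, 0.00 and 0.0809 CPM in ser-5 with DMSO. It had 26.4, 40.2 and 56.1 CPM in N2 with loxapine, against 0.00, 0.176, 0.106, 0.0269 and 0.0335 CPM in N2 with DMSO. The gene was close to silent without the drug in both strains, and treated and control libraries did not overlap. Its fitted log2 fold change was 10.81 ± 0.65 (SE, adjusted p = 8.98e-09) in ser-5 and 9.15 ± 0.44 (adjusted p = 1.47e-10) in N2. The ser-5 DMSO libraries held 2 counts in all, so the fitted value and its error depend on how low counts are treated. The ratio of summed CPM was 2155 in ser-5 (exact 95% counting interval 596 to 17805) and 621 in N2 (355 to 1202). The interaction was 1.66 ± 1.204 (SE), with a 95% interval of -0.85 to 4.17 that includes 0.

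Its neighbour cyp-35B2 (bases 3942160 to 3944523 of chromosome V) had 245 and 233 CPM in ser-5 with loxapine, against 2.61, 1.83 and 0.809 CPM in ser-5 with DMSO. In N2 it had 236, 383 and 230.5 CPM with loxapine, against 1.65, 0.735, 4.84, 0.860 and 0.535 CPM with DMSO. It was the most abundant of the 8 genes under loxapine in CPM, a scale not corrected for gene length, and its mutant and wild-type libraries with the drug lay in the same range. The log2 fold change was 7.05 ± 0.71 (SE, adjusted p = 0.000146) in ser-5 and 7.33 ± 0.56 in N2, and the interaction was -0.28 (95% interval -2.05 to 1.49).

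The third gene of the cluster, cyp-35B1 (bases 3939032 to 3941237), had 137 and 136 CPM in ser-5 with loxapine, against 20.4, 33.3 and 17.8 CPM in ser-5 with DMSO. N2 libraries had 132, 164 and 105 CPM with loxapine, against 22.4, 14.0, 38.6, 21.9 and 14.7 CPM with DMSO. Unlike cyp-35B3 it was well detected without the drug, and it rose by 2.51 ± 0.38 (SE, adjusted p = 0.00814) in ser-5 and by 2.58 ± 0.30 in N2. The interaction was -0.07 (95% interval -1.08 to 0.95). Its call in ser-5 was lost (adjusted p) without replicate 1 (0.0951) or 3 (0.115) of ser-5 with DMSO, without ser-5 loxapine replicate 1 (0.0897) or 2 (0.0937), and with the 4 compared groups only (0.122), over a range of 1.65e-09 to 0.122.

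The genes next to this cluster had values closer to 0. The neighbouring P450 genes cyp-34A4, cyp-34A5, cyp-34A6 and cyp-34A7, named after their values were seen, had log2 fold changes of -0.67, -0.06, -0.03 and -0.65 in ser-5 and of -0.55, 0.14, 0.07 and -0.31 in N2. None of these 8 values passed the threshold. On the other side of the cluster cyp-35A5, likewise named after its values were seen, had 1.65 ± 0.42 in ser-5 (SE, adjusted p = 0.691, not past the threshold) and rose by 2.14 ± 0.33 in N2.

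Elsewhere on chromosome V, cyp-35A1 (bases 7359929 to 7361773) had 2.23 and 1.199 CPM in ser-5 with loxapine, against 0.0561, 0.0464 and 0.00 CPM in ser-5 with DMSO. Its N2 values were 2.41, 3.38 and 0.855 CPM with loxapine and between 0.00 and 0.0588 CPM with DMSO. Summed counts were 110 and 4 in ser-5 with loxapine and with DMSO, a CPM ratio of 44.3 (exact 95% counting interval 16.8 to 166), and 226 and 6 in N2, a ratio of 68.3 (30.9 to 188). The groups did not overlap in either strain, and the gene rose by 5.36 ± 0.75 (SE, adjusted p = 0.00165) in ser-5 and by 5.88 ± 0.59 in N2. The ser-5 call ended without ser-5 loxapine replicate 1 (adjusted p = 0.0563, range 2.97e-05 to 0.0563).

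A cytochrome P450 of another family, cyp-33C6 (chromosome V), had 2.17 and 3.31 CPM in ser-5 with loxapine, against 0.673, 0.487 and 0.486 CPM in ser-5 with DMSO. In N2 the gene had 1.49, 2.23 and 2.75 CPM with loxapine and 0.238 to 0.353 CPM with DMSO. The ser-5 DMSO libraries all lay above the N2 DMSO libraries, and the libraries with loxapine overlapped between strains. It rose by 2.31 ± 0.40 (SE, adjusted p = 0.0236) in ser-5 and by 2.85 ± 0.34 in N2. Of the 8 genes its ser-5 call was lost most often, in 10 of 23 other settings. These included the replicate block (adjusted p = 0.0641), no ser-5 DMSO replicate 1 (0.0951), 2 (0.240) or 3 (0.1995), and no ser-5 loxapine replicate 1 (0.0636) or 2 (0.9999), within a range of 0.00054 to 0.9999.

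A gene of efflux was raised in both strains. The P-glycoprotein gene pgp-13 (bases 12738754 to 12744111 of chromosome X) encodes an ABC transporter of the type that pumps compounds across membranes. It had 31.7 and 36.8 CPM in ser-5 with loxapine, against 2.41, 2.13 and 2.99 CPM in ser-5 with DMSO. N2 worms had 17.2, 27.4 and 21.4 CPM with loxapine, against 1.71, 2.44, 3.62, 1.34 and 2.78 CPM with DMSO. Both ser-5 loxapine libraries lay above all 3 N2 loxapine libraries. The log2 fold change was 3.78 ± 0.37 (SE, adjusted p = 1.74e-05) in ser-5 and 3.21 ± 0.29 in N2, and the interaction was 0.57 ± 0.46 (95% interval -0.40 to 1.54, adjusted p = 0.696). Its adjoining genes pgp-12 and pgp-14, named after their values were seen, had 0.31 and 0.40 in ser-5, both not past the threshold. In N2, pgp-12 had -0.07, not past the threshold, and pgp-14 fell by 0.82 (adjusted p = 0.0400), a call that passed in 9 of 23 other settings (up to 0.160).

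A defence gene was also raised in both strains. C32H11.4 (chromosome IV), which encodes a CUB-like domain protein of a family that responds to bacteria, had 34.9 and 28.1 CPM in ser-5 with loxapine, against 9.45, 9.97 and 11.05 CPM in ser-5 with DMSO. The N2 libraries gave 37.8, 41.7 and 34.1 CPM with loxapine and 9.35 to 12.1 CPM with DMSO. It rose by 1.63 ± 0.23 (SE, adjusted p = 0.00165) in ser-5 and by 1.81 ± 0.18 in N2, and its ser-5 call ended without ser-5 loxapine replicate 1 (0.106, range 1.04e-07 to 0.106). The last of the 8, C01G12.5 (chromosome II), was chosen after its values were seen, since its level is below the minimum for named genes. It had 2.72 and 2.21 CPM in ser-5 with loxapine, against 0.196, 0.209 and 0.0405 CPM in ser-5 with DMSO, and 1.18 to 2.78 CPM in N2 with loxapine, against 0.0813 to 0.264 CPM in N2 with DMSO. It rose by 3.92 ± 0.55 (SE, adjusted p = 0.00165) in ser-5 and by 3.68 ± 0.44 in N2. That ser-5 call ended without ser-5 loxapine replicate 1 (0.0512, range 6.82e-07 to 0.0512).

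Of the 8 genes, cyp-35B3, cyp-35B2 and pgp-13 passed in ser-5 in all 23 other settings. Without ser-5 loxapine replicate 1 these were the only ones of the 8 that passed. The interaction of each of the 8 genes missed the threshold, which does not show that the responses were equal, and the interval widths above give the differences that the data allow.

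**Figure D2:**
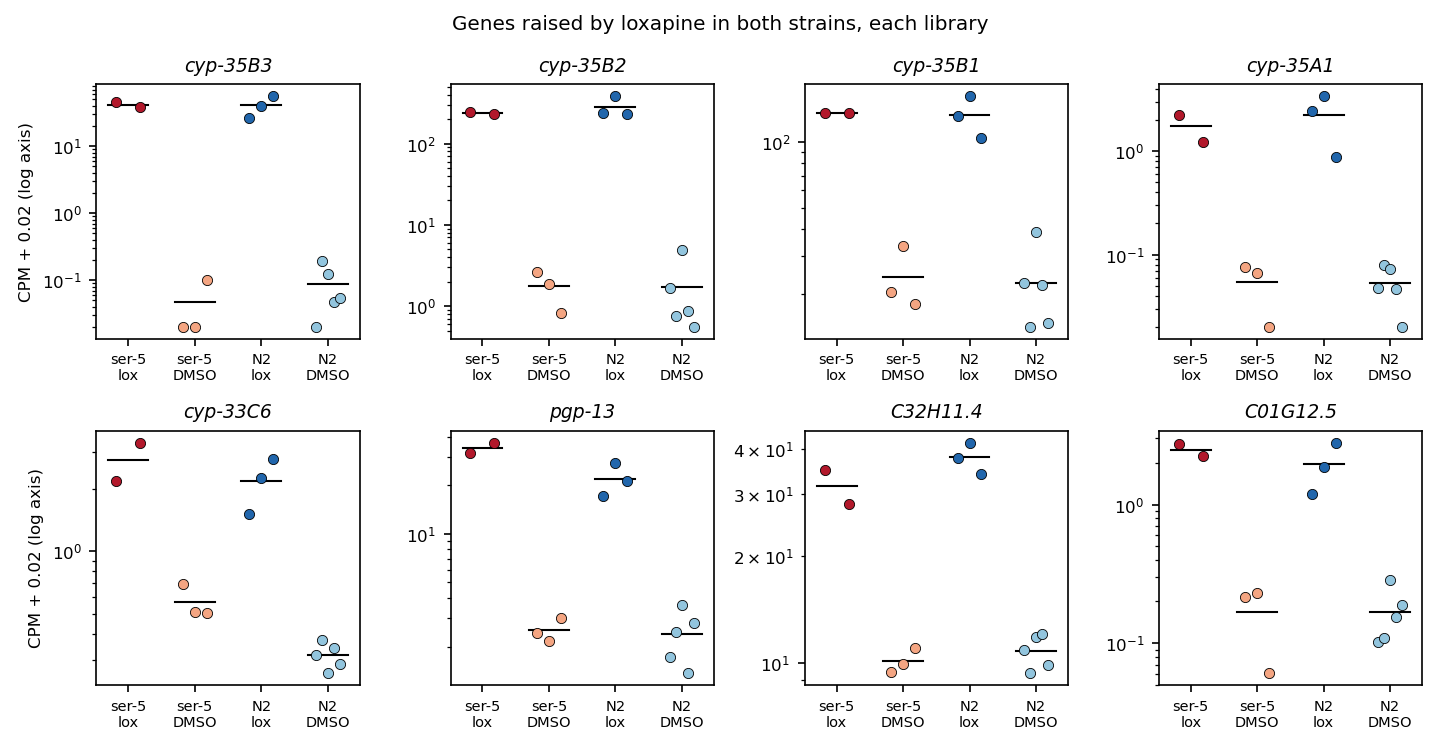
CPM + 0.02 on a log axis for the 8 genes raised by loxapine in both strains, with a point for each library and a line at the group mean, in ser-5 with loxapine, ser-5 with DMSO, N2 with loxapine and N2 with DMSO. In each panel every library with loxapine lies above every library with DMSO of its strain. For pgp-13 both ser-5 loxapine libraries also lie above the 3 N2 loxapine libraries.

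Several further genes raised in N2 had positive ser-5 values that missed the threshold. The C-type lectin gene clec-3, of a family linked to defence, had 9.19 and 7.89 CPM in ser-5 with loxapine, against 2.47, 2.69 and 2.06 CPM in ser-5 with DMSO. In N2 it had 8.96, 10.2 and 3.64 CPM with loxapine and 1.76 to 3.38 CPM with DMSO. Its log2 fold change was 1.82 ± 0.35 (SE, adjusted p = 0.0818) in ser-5 and 1.64 ± 0.28 in N2, and it passed in ser-5 in 6 of 23 other settings, among them DESeq2, the replicate block and the library series block. DESeq2 and the library series block also called dod-24, another CUB-like gene, at 1.65 ± 0.34 in ser-5 (SE, adjusted p = 0.228) and 2.63 ± 0.27 in N2, with 98.8 ± 19.9 CPM in loxapine-treated ser-5 (n = 2, error as SD), against 31.4 ± 9.78 CPM in its DMSO controls (n = 3), and 173 ± 51.9 CPM in N2 with loxapine (SD, n = 3), against 28.0 ± 3.70 CPM in N2 with DMSO (SD, n = 5). The P450 gene cyp-33C5, which adjoins cyp-33C6, had 1.59 ± 0.35 in ser-5 (SE, adjusted p = 0.301) and 1.61 ± 0.28 in N2. The aspartyl protease gene asp-14 had 1.56 ± 0.43 in ser-5 (SE) and 1.42 ± 0.34 in N2. R05D8.9 had 2.81 ± 0.65 in ser-5 (SE, adjusted p = 0.404) and 3.19 ± 0.50 in N2. For each of these 5 genes the N2 rise passed the threshold. The genes dod-24, cyp-33C5 and R05D8.9 were named after their values were seen.

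The other cyp-35 genes had smaller values in ser-5 than in N2 without passing the interaction. Of them cyp-35A3, cyp-35A4 and cyp-35D1 were named after their values were seen. In ser-5 with loxapine cyp-35A3 had 2.47 and 2.18 CPM, against 1.23, 0.696 and 0.607 CPM in ser-5 with DMSO. N2 libraries had 4.71, 10.2 and 1.92 CPM with loxapine and 0.265 to 0.894 CPM with DMSO. The N2 loxapine libraries spread widely and their lowest lay below both ser-5 loxapine libraries. The log2 fold change was 1.44 ± 0.61 (SE) in ser-5 and 3.42 ± 0.49 in N2, and the interaction was -1.98 ± 0.80 (unadjusted p = 0.0234, adjusted p = 0.489). The gene cyp-35C1 had 1.401 ± 0.35 in ser-5 (SE, adjusted p = 0.681) and rose by 2.04 ± 0.28 in N2, and cyp-35A2 had 0.84 ± 0.32 in ser-5 and rose by 1.56 ± 0.26 in N2. cyp-35A4 and cyp-35D1 passed in neither strain. In ser-5, 8 of the 10 cyp-35 genes had an unadjusted p under 0.05 and 9 of the 10 a positive value, so a missed threshold does not show that a gene was not raised.

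The other lists of enzymes and pumps for foreign compounds were mixed. In ser-5 0.0487% of all tested genes passed. A list without a call in ser-5 is therefore near the general share, here and in all lists below. Of 63 further cytochrome P450 genes, 1 rose in ser-5 (cyp-33C6). In N2, 11 rose and 1 fell, 19.0% against 18.9% of all tested genes. Their medians were -0.00 in ser-5 and 0.18 in N2. The adjacent pair cyp-25A1 and cyp-25A2 had 0.09 ± 0.27 and 0.07 ± 0.31 in ser-5 (SE) and rose by 1.33 ± 0.21 and 1.31 ± 0.25 in N2. In ser-5, cyp-25A1 had 7.64 and 7.07 CPM with loxapine, against 7.35, 7.63 and 5.70 CPM with DMSO, and in N2 it had 11.08, 19.6 and 13.9 CPM with loxapine, against 5.26 to 7.21 CPM with DMSO. The ser-5 groups overlapped. The N2 groups did not, which was a condition in the choice of both genes and is not a result. The interaction was -1.24 ± 0.35 for cyp-25A1 (unadjusted p = 0.0020, adjusted p = 0.422).

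Among 63 UDP-glucuronosyltransferase genes, whose enzymes attach sugar groups to compounds, none passed in ser-5, and 8 rose and 3 fell in N2, 17.5% against 18.9% of all tested genes (medians 0.06 in ser-5 and -0.01 in N2). The gene ugt-21 had 0.62 ± 0.28 in ser-5 (SE) and 1.69 ± 0.22 in N2, while ugt-22 had 1.07 ± 0.29 in ser-5 and 1.28 ± 0.23 in N2. Among 48 glutathione S-transferase genes none passed in ser-5, and 4 rose and 3 fell in N2, 14.6% of the list and below that background, with gst-6 at 1.05 ± 0.36 in ser-5 and 1.35 ± 0.28 in N2 (SE). Among 49 ABC transporter genes, pgp-13 rose in ser-5, and 7 rose and 6 fell in N2 (26.5%, against 18.9%). Their medians were 0.09 in ser-5 and -0.06 in N2. Of 20 CUB-like defence genes, C32H11.4 rose in ser-5 and 5 rose in N2 (25.0%, against 10.5% of all tested genes). Their medians were 0.13 in ser-5 and 0.44 in N2.

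The genes with the lowest p for a difference between strains had ser-5 values near 0 and were lowered by loxapine in N2, and the first of them was also an ABC transporter gene. In ser-5, pgp-5 (bases 10854216 to 10859297 of chromosome X) had 108.3 and 135 CPM with loxapine, against 107, 102.6 and 119.2 CPM with DMSO. Its N2 values were 59.3, 65.3 and 50.4 CPM with loxapine, against 105, 96.3, 99.6, 89.1 and 102 CPM with DMSO. The 3 N2 loxapine libraries lay below the other 10. The log2 fold change was 0.15 ± 0.11 (SE) in ser-5 and -0.76 ± 0.10 in N2 (adjusted p = 0.000149), and the interaction was 0.91 ± 0.15 (95% interval 0.60 to 1.21, unadjusted p = 4.64e-06, adjusted p = 0.0763). It passed by DESeq2 (adjusted p = 0.000781), with the library series block (0.0170), without N2 loxapine replicate 1 (0.0429) or 2 (0.0211) and without ser-5 loxapine replicate 1 (0.0376), and reached 0.970 without ser-5 loxapine replicate 2. Its neighbours in a cluster of 4 transporter genes, named after their values were seen, had interactions of 0.59 ± 0.13 for pgp-6 (adjusted p = 0.25), 1.06 ± 0.32 for pgp-7 (0.442) and 0.39 ± 0.29 for pgp-8 (0.669), of which pgp-6 passed by DESeq2 (0.0409) and with the library series block (0.0496). Their ser-5 values were 0.09, 0.19 and 0.18, and in N2 pgp-6 fell by 0.50 and pgp-7 by 0.86, while pgp-8 had -0.21 and did not pass.

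The glutamate transporter gene glt-4 (chromosome X) had 9.96 and 12.3 CPM in ser-5 with loxapine, against 9.15, 8.51 and 8.54 CPM in ser-5 with DMSO. In N2 the gene had 3.69, 3.03 and 3.57 CPM with loxapine, against 9.95, 7.08, 6.501, 8.38 and 8.60 CPM with DMSO. The N2 groups did not overlap, and in ser-5 both loxapine libraries lay above the 3 DMSO libraries. The log2 fold change was 0.35 ± 0.21 (SE) in ser-5 and -1.24 ± 0.18 in N2, with an interaction of 1.59 ± 0.28 (95% interval 1.01 to 2.17, adjusted p = 0.105). By DESeq2 its adjusted p was 0.000781 and with the library series block 0.0262.

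The C-type lectin gene clec-86 had 8.44 and 9.998 CPM in ser-5 with loxapine, against 6.73, 8.117 and 7.77 CPM in ser-5 with DMSO. N2 worms had 1.205, 1.72 and 2.11 CPM with loxapine, against 8.35, 6.67, 5.87, 8.68 and 6.89 CPM with DMSO. The interaction was 2.41 ± 0.50 (SE, 95% interval 1.37 to 3.46, adjusted p = 0.25), with 0.29 ± 0.38 in ser-5 and -2.12 ± 0.34 in N2, and it passed by DESeq2, with the 4 compared groups only and with the library series block. The twitchin gene unc-22, for a giant protein of muscle, had an interaction of 0.81 ± 0.16, and cri-2, for an inhibitor of metalloproteases, one of 0.69 ± 0.14 (SE, both adjusted p = 0.25). Both passed by DESeq2 (adjusted p = 0.0414 for unc-22 and 0.0345 for cri-2) and with the library series block (0.0274 for unc-22 and 0.0481 for cri-2). In ser-5 with loxapine unc-22 had 77.7 and 93.5 CPM, against 81.7, 83.8 and 83.1 CPM in ser-5 with DMSO, and in N2 it had 43.6, 48.3 and 51.6 CPM with loxapine, against 71.0 to 95.5 CPM with DMSO. For both genes the ser-5 groups overlapped and the N2 groups did not.

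A further pair of genes lowered in N2 was called in alternative fits. The invertebrate lysozyme gene ilys-3 had 16.7 and 15.1 CPM in ser-5 with loxapine, against 23.1, 17.1 and 28.2 CPM in ser-5 with DMSO. The N2 libraries gave 4.29, 2.2005 and 6.02 CPM with loxapine, against 23.1, 38.7, 27.6, 20.1 and 36.1 CPM with DMSO. The ser-5 loxapine libraries lay below their controls and above all N2 loxapine libraries. The log2 fold change was -0.52 ± 0.46 (SE) in ser-5 and -2.80 ± 0.42 in N2, and the interaction was 2.28 ± 0.59 (adjusted p = 0.399). With the replicate block, which pairs libraries by the batch tag of the labels, ilys-3 was the 1 gene called (interaction 2.69, adjusted p = 0.00021), and with the library series block its adjusted p was 4.63e-06. The RGS protein gene egl-10, for a regulator of heterotrimeric G proteins, had an interaction of 1.08 ± 0.25 (adjusted p = 0.25), with 0.31 ± 0.19 in ser-5 and -0.77 ± 0.16 in N2 (SE). It passed by DESeq2, with the library series block and without N2 loxapine replicate 1.

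Genes with a negative interaction, raised by loxapine in N2, were further from the threshold. The gene aptf-4, for a transcription factor of the AP-2 family, had 4.70 and 4.01 CPM in ser-5 with loxapine, against 3.96, 4.50 and 4.45 CPM in ser-5 with DMSO. In N2 it had 8.09, 13.4 and 13.3 CPM with loxapine, against 3.69, 5.35, 5.23, 3.41 and 5.19 CPM with DMSO. The interaction was -1.32 ± 0.30 (SE, 95% interval -1.94 to -0.71, adjusted p = 0.25), with 0.02 ± 0.23 in ser-5 and 1.34 ± 0.18 in N2. It passed by DESeq2 (adjusted p = 0.0349) and without N2 loxapine replicate 1 (0.0429). The gene sepa-1, for an adaptor in the autophagy of P granule components, had 8.88 and 7.57 CPM in ser-5 with loxapine, against 8.501, 7.61 and 10.5 CPM in ser-5 with DMSO. N2 libraries had 14.3, 21.6 and 19.6 CPM with loxapine and 6.505 to 10.6 CPM with DMSO, and its interaction was -1.15 ± 0.27 (adjusted p = 0.25), past the threshold by DESeq2 (0.0414) and with the library series block (0.0496). For both genes the ser-5 groups overlapped and the N2 groups did not. For aptf-4 the latter was also a condition of its place among the widest gaps below. The RING finger gene rnf-113 (-0.66 ± 0.15), T15H9.6 (-2.06 ± 0.52) and Y51H7C.1 (-1.06 ± 0.28) completed the 5 negative interactions with the lowest p-values, at adjusted p between 0.25 and 0.399 (SE).

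**Figure D3:**
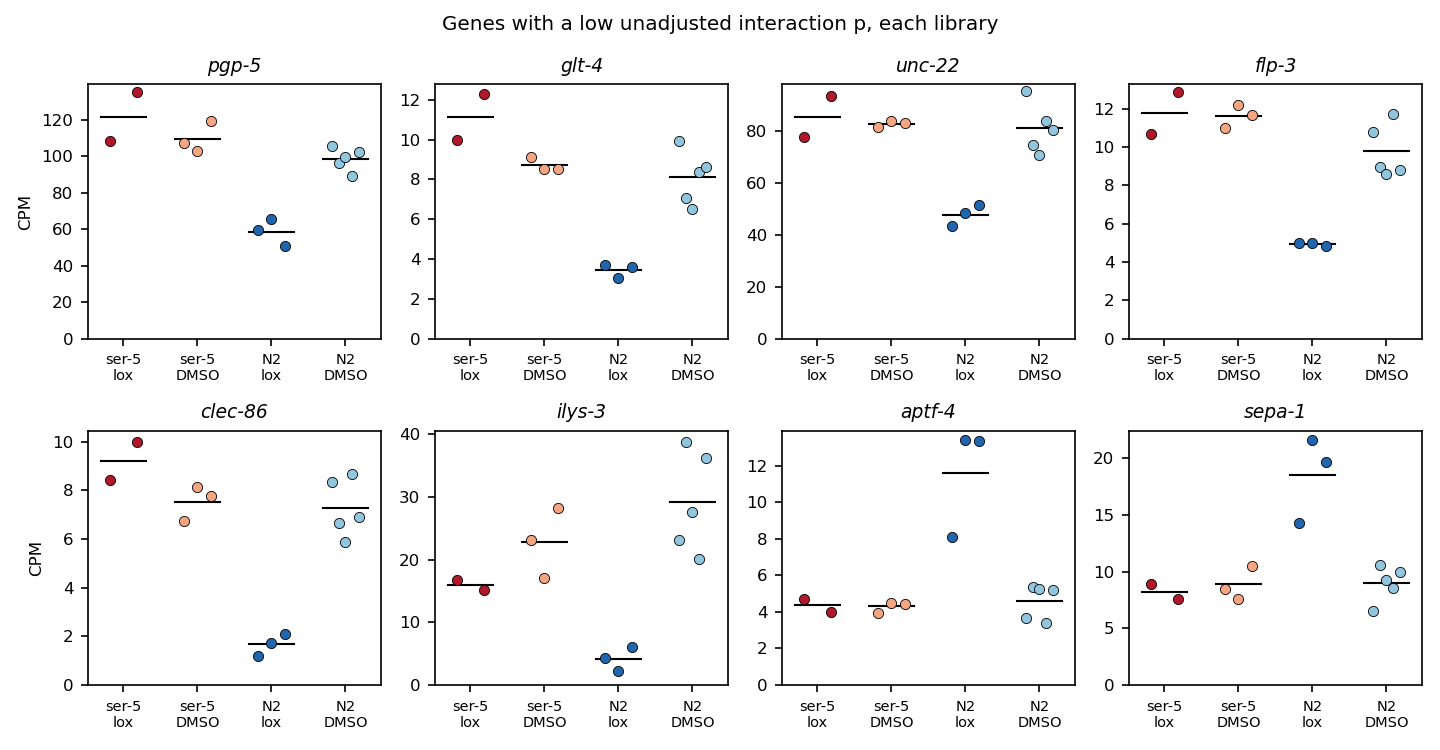
CPM of 8 genes with a low unadjusted interaction p, with a point for each library and a line at the group mean, in ser-5 with loxapine, ser-5 with DMSO, N2 with loxapine and N2 with DMSO. In the 6 panels from pgp-5 to ilys-3 the N2 loxapine libraries lie below the other groups, and in the panels of aptf-4 and sepa-1 they lie above them. None of the 8 genes passed the threshold in the fit reported here.

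The larger N2 changes followed the same course. Of the 175 genes raised by over 2-fold in N2 (1.07% of all tested), the median was 0.20 in ser-5 against 1.25 in N2, and 29 had at least 50% of the N2 value. Of the 313 lowered by over 2-fold (1.90%), the median was -0.18 in ser-5 against -1.34 in N2, and 14 had at least 50%. The genes named next were chosen for N2 groups that did not overlap and an unadjusted interaction p under 0.05 against the N2 change. Their gaps were thus part of the choice and are not a result. Among raised genes with the widest gaps, C40H1.7 had 4.42 and 4.95 CPM in ser-5 with loxapine, against 4.74, 4.75 and 3.88 CPM in ser-5 with DMSO, and 7.23, 12.7 and 14.0 CPM in N2 with loxapine, against 1.45 to 4.55 CPM in N2 with DMSO. The others were Y71A12B.11, ppat-1, aptf-4, clec-57, cyp-25A1, cyp-25A2 and daao-1, a D-amino acid oxidase gene, with ser-5 values between -0.23 (Y71A12B.11) and 0.14 (clec-57). Among lowered genes the widest gap was that of pqn-15, at 0.21 ± 1.098 in ser-5 and -4.29 ± 1.16 in N2 (SE, interaction adjusted p = 0.478). In ser-5 DMSO replicate 2 it had 1.51 CPM, against 22.2 and 15.9 CPM in replicates 1 and 3. The rest were Y105E8A.25, F56E10.1, Y39H10A.6, ilys-3, clec-86, rimb-1 and Y92H12BR.7, with ser-5 values between -0.52 (ilys-3) and 0.44 (Y92H12BR.7). That same library was the lowest of the 3 ser-5 DMSO libraries also for Y105E8A.25, F56E10.1, Y39H10A.6, rimb-1 and Y92H12BR.7. Without that library the interaction was 3.97 for pqn-15 and 1.81 to 2.43 for the other 5, with the same sign and none past the threshold. None of these 16 interactions passed, with adjusted p between 0.25 and 0.509. In alternatives F56E10.1 passed by DESeq2 (0.0414) and with the library series block (0.0496), daao-1 with the library series block (0.0496), and ilys-3, clec-86 and aptf-4 in the settings given with their values.

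Muscle genes, many of them lowered by loxapine in N2, had ser-5 values near 0. Of 39 body wall muscle genes, none passed in ser-5, where 0.0487% of all tested genes passed. In N2, 24 of them fell (61.5%, against 8.38% of all tested genes). Their medians were -0.09 in ser-5 and -0.54 in N2. The interaction was positive for all 39, against 8739 of all 16431 tested genes, with a median of 0.43. The N2 value that it subtracts was positive for 2 of the 39, so this sign is not a separate result. At an unadjusted p under 0.05 there were 14 positive interactions (35.9%, against 5.25% of all tested genes), although none passed. Of all 1377 genes lowered in N2, 653 had a positive interaction at that p, so the 14 do not set muscle genes apart. The paramyosin gene unc-15, for a core protein of thick filaments, had 343 and 459 CPM in ser-5 with loxapine, against 459, 463 and 537 CPM in ser-5 with DMSO. Its N2 values were 281, 240.5 and 379 CPM with loxapine, against 704, 574, 536, 681 and 592 CPM with DMSO. Of the 3 ser-5 DMSO libraries 2 lay below the N2 DMSO range, and 1 ser-5 loxapine library fell in the range of N2 with loxapine. The interaction was 0.76 ± 0.27 (SE, adjusted p = 0.478), and that of the troponin T gene mup-2 was 0.64 ± 0.22 (adjusted p = 0.478). Of 26 pharynx genes none passed in ser-5 and 6 fell in N2 (23.1%, against 8.38% of all tested genes). Their medians were -0.06 in ser-5 and -0.56 in N2. Within library series 1, 2 and 3 the N2 median was -0.002, -0.73 and -0.46. In ser-5 it was -0.07 in series 1 and -0.13 in series 2. The gene myo-2, for a myosin heavy chain of pharyngeal muscle, had -0.08 ± 0.30 in ser-5 and -1.13 ± 0.25 in N2. These are whole-body samples, in which fewer cells of a type and less RNA per cell cannot be told apart. Summed over 5 muscle markers, libraries had 1243 to 1666 CPM in ser-5 with loxapine, 1566 to 1714 in ser-5 with DMSO, 741 to 1227 in N2 with loxapine and 1706 to 2241 in N2 with DMSO, and the part of muscle content in the muscle results was not tested.

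Neuropeptide genes, which encode signals that neurons release, had low interaction p-values in about as many members as had calls in N2. Of 65 NLP neuropeptide genes none passed in ser-5 and 29 fell in N2 (44.6%, against 8.38% of all tested genes). Their medians were 0.05 in ser-5 and -0.47 in N2. The interaction was positive for 60 of them, against 8739 of all 16431 tested genes. The N2 value that it subtracts was positive for 3 of the 65, so this sign is not a separate result. At an unadjusted p under 0.05 there were 30 interactions (46.2%, against 5.25% of all tested genes), all positive. Of 30 FLP genes, which encode FMRFamide-like peptides, none passed in ser-5 (median 0.06). In N2, 16 fell (53.3%) and 2 rose (6.67%, against 10.5% of all tested genes), with a median of -0.53. Their interactions at an unadjusted p under 0.05 numbered 16 (53.3%), all positive. The gene flp-3 had 10.7 and 12.9 CPM in ser-5 with loxapine, against 10.998, 12.2 and 11.7 CPM in ser-5 with DMSO. In N2 the gene had 4.98, 5.01 and 4.83 CPM with loxapine, against 10.8, 8.97, 8.59, 11.7 and 8.80 CPM with DMSO. The N2 loxapine libraries lay close together and below all other libraries, and the interaction was 1.00 ± 0.22 (SE, 95% interval 0.54 to 1.47, adjusted p = 0.25). It passed by DESeq2 (adjusted p = 0.0409) and with the library series block (0.0496). Further interactions were 0.68 ± 0.18 for flp-16, 0.61 ± 0.18 for flp-10, 0.69 ± 0.17 for nlp-14 and 0.73 ± 0.20 for nlp-15 (SE, adjusted p between 0.399 and 0.423).

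Enzymes that make neuropeptides were in the same position. Of 13 genes of neuropeptide processing and dense core vesicle release, none passed in ser-5. In N2, 5 fell (38.5%, against 8.38% of all tested genes). Their medians were 0.05 in ser-5 and -0.40 in N2. The interaction was positive for all 13, against 8739 of all 16431 tested genes. The N2 value that it subtracts was positive for 2 of the 13, so this sign too is not a separate result. The proprotein convertase gene egl-3 had -0.05 ± 0.15 in ser-5 and -0.52 ± 0.12 in N2 (SE), and the chaperone gene sbt-1, for a 7B2 protein that assists it, had 0.06 ± 0.11 in ser-5 and -0.44 ± 0.09 in N2. Of 38 synaptic genes, none passed in ser-5 and 9 fell in N2 (23.7%, against 8.38% of all tested genes). Their medians were -0.08 in ser-5 and -0.34 in N2. Among them eat-4, the vesicular glutamate transporter gene, had -0.31 ± 0.28 in ser-5 and -1.46 ± 0.24 in N2, and its interaction of 1.15 ± 0.36 (adjusted p = 0.462) passed with the library series block (0.0357). Of 37 insulin-like peptide genes, none passed in ser-5 (median 0.07). In N2, 8 fell (21.6%, against 8.38% of all tested genes) and 1 rose (2.70%, against 10.5%), with a median of -0.44. The gene ins-11 had -0.53 ± 0.32 in ser-5 and -1.83 ± 0.29 in N2. Over 5 neuronal markers, libraries had 668 to 676 CPM in ser-5 with loxapine, 659 to 720.2 in ser-5 with DMSO, 525 to 614 in N2 with loxapine and 619 to 746 in N2 with DMSO. Their part in the neuropeptide results was not tested.

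Cuticle and defence peptide genes showed wider scatter. Of 150 collagen genes, none passed in ser-5, with medians of -0.03 in ser-5 and -0.72 in N2. In N2, 23 fell (15.3%, against 8.38% of all tested genes) and 1 rose (0.667%, against 10.5%). Of the 150 interactions, 24 were positive at an unadjusted p under 0.05 (16.0%, against 5.25% of all tested genes) and 1 negative (0.667%, against 4.25%). The gene col-2 had an interaction of 1.36 ± 0.38 (SE, adjusted p = 0.422). Of 45 antimicrobial peptide genes, none passed in ser-5 and 9 fell in N2 (20.0%, against 8.38% of all tested genes). Their medians were 0.08 in ser-5 and -0.56 in N2. The caenacin gene cnc-2 had 0.11 ± 0.19 in ser-5 and -0.87 ± 0.16 in N2, with an interaction that passed with the library series block (0.0496). Of 41 lysozyme and saposin genes, none passed in ser-5 and 9 fell in N2, 21.95% against 8.38% of all tested genes (medians -0.15 in ser-5 and -0.32 in N2), with the saposin gene spp-12 at -0.25 ± 0.38 in ser-5 and -1.90 ± 0.34 in N2. All tested genes, for comparison, had medians of -0.00 in ser-5 and -0.07 in N2.

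Oocyte and germline genes, many of them raised by loxapine in N2, had negative median interactions, -0.33 for oocyte and eggshell genes and -0.24 for germline regulators. The medians of the cyp-35 family (-0.54) and of 4 yolk genes (-0.50) were lower. Of 356 genes with F-box, MATH or BATH domains, 33 interactions were negative (9.27%, against 4.25% of all tested genes) and 11 positive at an unadjusted p under 0.05. Of 31 oocyte and eggshell genes none passed in ser-5. In N2, 23 rose (74.2%, against 10.5% of all tested genes) and 1 fell (3.23%, against 8.38%). Their medians were 0.14 in ser-5 and 0.46 in N2. The value in ser-5 was positive for 24 of the 31, against 8177 of all 16431 tested genes. The interaction was positive for 1 and negative for 30, while 8739 of the 16431 had a positive one. The N2 value that it subtracts was positive for 30 of the 31, so this sign is not a separate result. At an unadjusted p under 0.05, 8 interactions were negative (25.8%, against 4.25% of all tested genes). Of all 1724 genes raised in N2, 566 had a negative interaction at that p, so the 8 do not set oocyte genes apart. The eggshell proteoglycan gene cpg-3 had 419 and 364 CPM in ser-5 with loxapine, against 309.5, 273 and 382 CPM in ser-5 with DMSO. N2 worms had 725, 785 and 589 CPM with loxapine, against 342, 433, 402, 344 and 405 CPM with DMSO. The ser-5 groups overlapped and the N2 groups did not, and the interaction was -0.58 ± 0.27 (SE, adjusted p = 0.518). Of 44 germline regulators, none passed in ser-5 and 17 rose in N2 (38.6%, against 10.5% of all tested genes). Their medians were 0.06 in ser-5 and 0.29 in N2. The gene him-8, for a protein of X chromosome pairing, had 0.13 ± 0.16 in ser-5 and 0.61 ± 0.13 in N2. Of 42 cell cycle and DNA replication genes, none passed in ser-5 and 13 rose in N2 (31.0% of them). Their medians were 0.04 in ser-5 and 0.21 in N2. Summed over 4 oocyte markers, libraries had 2508 to 2932 CPM in ser-5 with loxapine, 2285 to 2551 in ser-5 with DMSO, 3754 to 4336 in N2 with loxapine and 2478 to 3159 in N2 with DMSO. Over 4 germline markers they had 688 to 829.6 CPM in ser-5 with loxapine, 706 to 866 in ser-5 with DMSO, 1201 to 1332 in N2 with loxapine and 826 to 1050.3 in N2 with DMSO. The part of gonad content in these results was not tested.

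**Figure D4:**
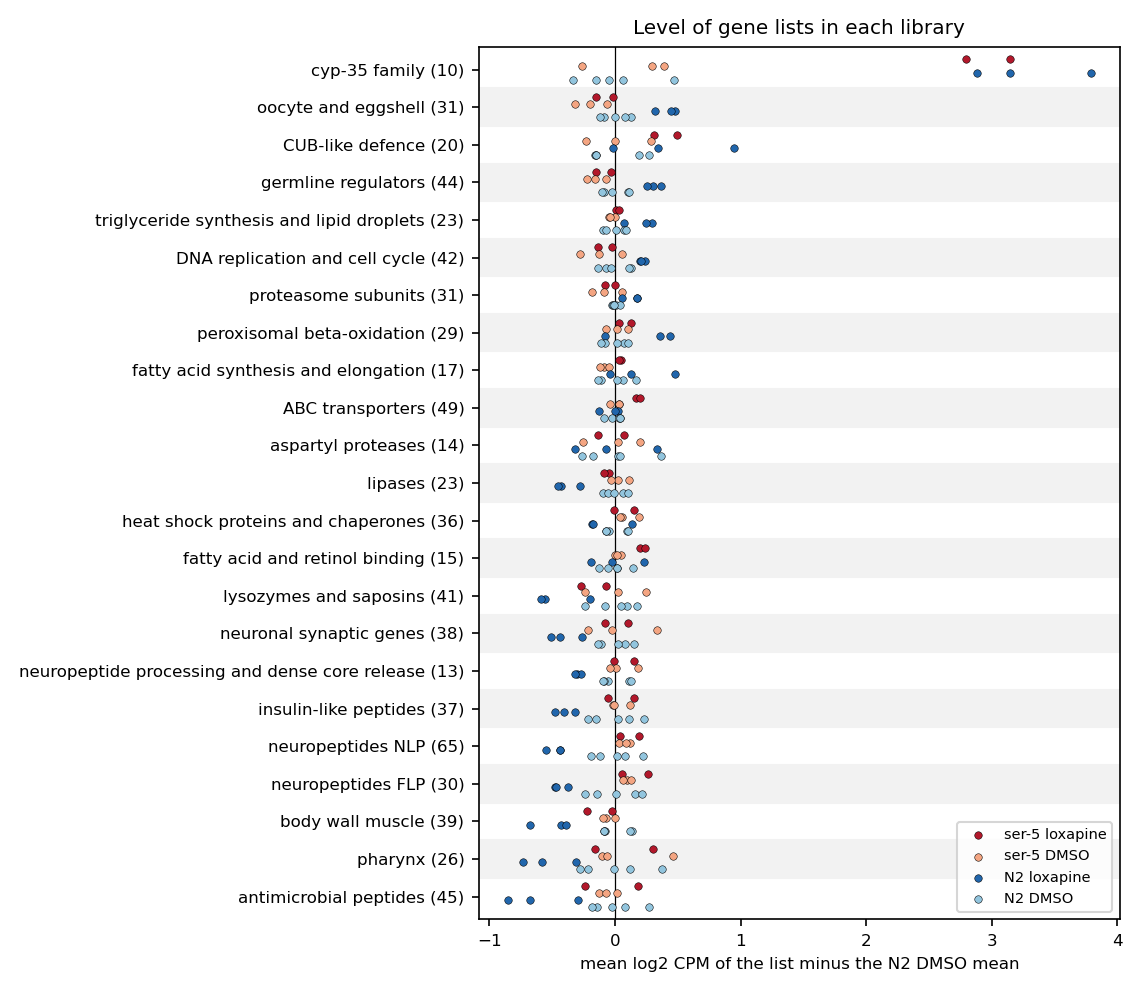
Mean log2 CPM of the tested members of 23 gene lists in each library, minus the N2 DMSO mean, with a point for each library (in each row ser-5 with loxapine on top, then ser-5 with DMSO, N2 with loxapine and N2 with DMSO, and the number of tested members in brackets). Shown are lists with at least 10 tested members and at least 20% of them past the threshold in N2, ordered by their N2 median. In the neuropeptide and muscle rows the N2 loxapine libraries lie left of the others, and in the cyp-35 row the loxapine libraries of both strains lie far to the right.

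Levels of the lists by library gave the same picture as the medians. On the log2 scale relative to the N2 DMSO mean, body wall muscle genes lay at -0.23 to -0.02 in ser-5 with loxapine, -0.09 to 0.00 in ser-5 with DMSO, -0.68 to -0.39 in N2 with loxapine and -0.09 to 0.13 in N2 with DMSO. NLP genes lay at 0.04 to 0.19 in ser-5 with loxapine, 0.03 to 0.12 in ser-5 with DMSO, -0.55 to -0.44 in N2 with loxapine and -0.19 to 0.22 in N2 with DMSO. Oocyte and eggshell genes lay at -0.15 to -0.02 in ser-5 with loxapine, -0.32 to -0.06 in ser-5 with DMSO, 0.32 to 0.48 in N2 with loxapine and -0.12 to 0.13 in N2 with DMSO. The ranges of the N2 loxapine libraries did not overlap any other group in these 3 lists. The cyp-35 genes lay at 2.80 to 3.15 in ser-5 with loxapine and 2.88 to 3.79 in N2 with loxapine, ranges that overlapped.

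Fat genes gave no call in ser-5, where 0.0487% of all tested genes passed. In N2 the share called was 43.5% for lipid droplet and triglyceride synthesis genes, 29.4% for fatty acid synthesis and elongation and 24.1% for peroxisomal beta-oxidation, against 18.9% of all tested genes. It was 30.4% for lipases (2 rose and 5 fell) and 20.0% for fatty acid and retinol binding genes. Below that background were mitochondrial beta-oxidation and fatty acid activation (14.6%) and desaturases (14.3%), so fat gene lists were mixed. Of 23 lipid droplet and triglyceride synthesis genes, none passed in ser-5 and 8 rose and 2 fell in N2 (medians 0.02 in ser-5 and 0.26 in N2), with the acyltransferase gene acl-3 at 0.24 ± 0.17 in ser-5 and 0.51 ± 0.13 in N2 (SE). Of 29 genes of peroxisomal beta-oxidation, none passed in ser-5 and 7 rose in N2 (medians 0.04 in ser-5 and 0.13 in N2). The acyl-CoA oxidase gene C48B4.1 had 0.52 ± 0.19 in ser-5 and 0.94 ± 0.15 in N2, and the transporter gene pmp-5 had 0.24 ± 0.22 in ser-5 and 1.06 ± 0.17 in N2. The desaturase gene fat-5 had 105 and 131 CPM in ser-5 with loxapine, against 128, 139.7 and 152 CPM in ser-5 with DMSO, and 105, 124 and 95.7 CPM in N2 with loxapine, against 150.4, 184, 159, 180.0 and 179 CPM in N2 with DMSO. It had -0.24 ± 0.21 in ser-5 (SE) and fell by 0.66 ± 0.17 in N2, with overlapping ser-5 groups and an interaction of 0.42 ± 0.27 (adjusted p = 0.623). The desaturase genes fat-6 and fat-7, dgat-2 of triglyceride synthesis, the lipases atgl-1 and lipl-4, the acyl-CoA synthetase acs-2 and the lipid droplet protein gene dhs-3 passed in neither strain. Their interactions lay between -0.51 ± 0.37 (dhs-3) and 0.33 ± 0.23 (dgat-2).

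Genes of serotonin signalling itself gave no call in ser-5, where 0.0487% of all tested genes passed. Of 6 serotonin receptor genes none passed in ser-5 and 3 fell in N2 (50.0%, against 8.38% of all tested genes). Their medians were -0.27 in ser-5 and -0.47 in N2. The receptor genes ser-1, ser-4 and lgc-50 had -0.28 ± 0.24, -0.15 ± 0.22 and -0.25 ± 0.18 in ser-5 and fell by 0.59 ± 0.20, 0.58 ± 0.18 and 0.51 ± 0.14 in N2 (SE). These N2 calls passed in 9 (ser-1), 14 (ser-4) and 16 (lgc-50) of 23 other settings. The serotonin reuptake transporter gene mod-5 had 3.31 and 3.69 CPM in ser-5 with loxapine, against 5.56, 4.89 and 4.61 CPM in ser-5 with DMSO. The N2 libraries gave 3.30, 2.36 and 2.72 CPM with loxapine, against 4.23, 4.15, 3.51, 4.59 and 4.85 CPM with DMSO. The groups did not overlap in either strain, and the values were -0.52 ± 0.21 in ser-5 (unadjusted p = 0.0245, not past the threshold) and -0.61 ± 0.17 in N2 (adjusted p = 0.0212). Its interaction was 0.09 ± 0.27 (95% interval -0.48 to 0.65). The cat-4 gene, for an enzyme of biogenic amine synthesis, had 0.51 ± 0.23 in ser-5 and rose by 0.76 ± 0.18 in N2. The genes tph-1, ser-7, mod-1 and cat-1 passed in neither strain, with interactions between -0.76 ± 0.48 (tph-1) and 0.37 ± 0.32 (cat-1). None of 14 other biogenic amine receptor genes passed in either strain, with medians of -0.11 in ser-5 and -0.21 in N2.

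By chromosome, the X held fewer raised and more lowered genes in N2 than any autosome did, with no test made of position. On chromosome X, 96 of 2400 tested genes rose in N2 (4.00%) and 305 fell (12.7%), with medians of -0.06 in ser-5 and -0.20 in N2. On the 5 autosomes 9.67% to 13.7% of genes rose and 6.66% to 8.23% fell in N2, and medians lay between -0.00 and 0.02 in ser-5 and between -0.11 and -0.02 in N2. The median interaction was 0.12 on X and between -0.01 and 0.05 on the autosomes. At an unadjusted p under 0.05, 138 interactions on X were positive (5.75%, against 5.25% of all tested genes and 6.31% on chromosome IV) and 40 were negative (1.67%, against 4.25% of all tested genes).

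The library series gave values within each series, where each ser-5 loxapine library has its own controls. Series 1 and series 2 hold a ser-5 loxapine library each and series 3 holds none, so these are values without a test. The median interaction was 0.17 in series 1 and 0.76 in series 2 for body wall muscle, 0.44 and 0.78 for NLP genes, 0.50 and 0.79 for FLP genes, and 0.09 and 1.399 for collagens. It was -0.28 and -0.39 for oocyte and eggshell genes and -0.17 and -0.43 for germline regulators, against -0.01 and 0.05 for all tested genes. The sign was thus shared by both series in these 6 lists, and the size was larger in series 2. Lists with mostly lowered or mostly raised genes in N2 tend to such a sign, since the N2 value is subtracted. The 81 ribosomal protein genes, with a median interaction of 0.30, had -0.08 in series 1 and 0.85 in series 2. For clec-86 the interaction was 2.55 and 2.57, for ilys-3 2.198 and 3.08, for pgp-5 0.77 and 0.96 and for glt-4 0.93 and 2.101 in series 1 and 2. For egl-10 it was 0.28 and 1.71, and for aptf-4 -0.38 and -2.07 in the same series, larger in series 2. Among the genes raised in both strains, the sign of the interaction differed between series 1 and 2 for cyp-35B2 (0.93 and -1.31), cyp-35B1 (0.97 and -0.85), pgp-13 (1.46 and -0.05), C32H11.4 (0.21 and -0.37) and C01G12.5 (1.51 and -0.45).

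**Figure D5:**
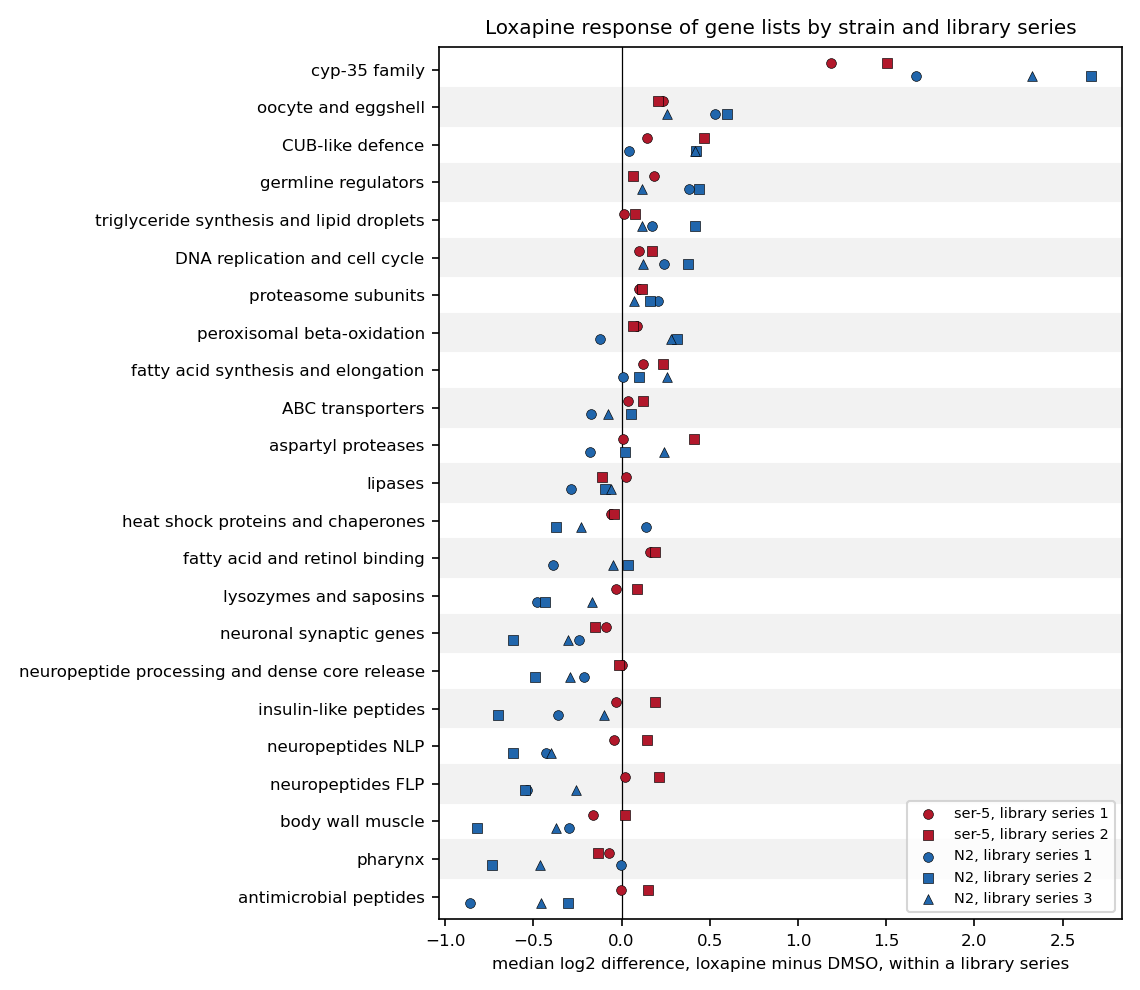
Median log2 difference of loxapine minus DMSO over the tested members of 23 gene lists within each library series, in ser-5 (red, upper points of a row, series 1 and 2) and in N2 (blue, lower points, series 1 to 3). In the neuropeptide and body wall muscle rows the N2 points lie left of the ser-5 points in series 1 and 2, and in the oocyte row they lie right of them. In the pharynx row the N2 point of series 1 lies right of the ser-5 point and that of series 2 left of it.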

How the data were processed

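RNA of whole worms was sequenced as single reads, per the labels' protocols, and the authors deposited raw read counts per gene for 22 libraries. The aligner, counter, genome build and strand setting are not stated in the sources used here. Genes were joined by identifier to Ensembl release 115 for positions. Counts were scaled by TMM and fitted in edgeR 4.0.16 (R 4.3.3) with the robust quasi-likelihood model. All 22 libraries entered in 7 groups, so that they share 1 estimate of the spread. Genes passed filterByExpr with a minimum count of 10 and a minimum total of 15, and p-values were Benjamini-Hochberg adjusted over all 16431 tested genes, with a threshold of 0.05. CPM are TMM-scaled, and SDs are between libraries. Standard errors (SE) were not taken from the fitted coefficients. Each is the absolute log2 fold change divided by the square root of its quasi-likelihood F statistic, and the 95% intervals of fold changes use it. They are approximate, and for genes with few control counts, such as cyp-35B3, they may be too small. The errors of both strains need not combine to that of the interaction. List levels used log2 CPM with a prior count of 2. Counting intervals are exact, at 95%, and cover counting error only.

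Alternatives were the Wald test of DESeq2 1.42.0, RLE size factors, no filter, a replicate block, a fit of the 4 compared groups alone, a block for library series, other sets of N2 DMSO libraries, and leaving out each replicate. The replicate block pairs libraries by a tag named batch in the labels, which holds the replicate number. Of 12 pairs with the same tag, 8 deviated together from their group means (correlation over 0.1, range -0.0959 to 0.517, median 0.182). Of 20 pairs of the same library series 15 did (median 0.242), against 6 of 41 pairs of different series (median -0.0904). The scripts were tested on simulated data. Named genes were those with the lowest interaction p (5 in each direction), those called in both strains at a mean log2 CPM of at least 2, the widest gaps among genes called in N2 by over 2-fold, leading genes of lists, and a set of receptors and fat genes. The widest gaps were taken only from genes at that mean log2 CPM whose N2 groups did not overlap. These genes also had an unadjusted interaction p under 0.05 against the N2 change. The genes, the 46 lists and the comparison were chosen with earlier results of these data known.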

Additional observations from a re-analysis of the deposited data

Results flagged for a closer look

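For 4 of 232 genes and gene lists tested, 1 library of the 5 stood apart from the others by Dixon's criterion, and chance gives about 1 in 20. N2 with DMSO is the only group large enough to be tested. The gene cyp-35B2 had 4.84 CPM in replicate 4, in a group range of 0.535 to 4.84 CPM, which is still far below every library with loxapine. The gene hacd-1 had 97.7 CPM in replicate 4 (range 62.7 to 97.7), lbp-8 had 1.15 CPM in replicate 5 (range 0.602 to 1.15) and cat-1 had 4.17 CPM in replicate 2 (range 3.04 to 4.17).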

How the results depend on the processing

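The count of interaction calls was 0 here and 20 by DESeq2 (18 higher, 2 lower), 43 with the library series block (41 higher, 2 lower) and 2 with the 4 compared groups only. It was 0 to 6 when 1 replicate of a group other than ser-5 loxapine was left out (6 without N2 loxapine replicate 1). Leaving out a ser-5 loxapine replicate leaves 1 library in that group, a weak base for a call. Whether the calls by DESeq2 and the library series block hold with either ser-5 loxapine library alone was not tested. The count of interaction calls was 0 with RLE size factors, no filter, summed near-duplicate controls, subsets of the N2 DMSO libraries and N2 libraries chosen to match those of ser-5. With the replicate block it was 1 (ilys-3), and in ser-5 the block lost cyp-33C6 and gained clec-3. The N2 count of 3101 became 5275 with the library series block, 1129 with near-duplicate controls summed, 339 using N2 DMSO replicates 2 and 3 alone, 1120 using replicates 4 to 6 alone, 146 using N2 libraries matched to those of ser-5, and 556 to 3451 when 1 replicate was left out (556 without N2 loxapine replicate 2). Genes called in ser-5, and in both strains, numbered 3 to 9 when 1 replicate was left out (3 without ser-5 loxapine replicate 1). More N2 genes were lower than higher with no filter (1421 lower, 1397 higher), the replicate block (1567, 1463), the library series block (2753, 2522), N2 DMSO replicates 2 and 3 alone (197, 142), N2 libraries matched to ser-5 (93, 53), and without N2 loxapine replicate 1 (1826, 1625) or 2 (320, 236). The causes were not tested. No value of a named gene changed sign while called, a narrow criterion, and list medians carry no call. Values that were not called did change sign, among them the median interaction of ribosomal protein genes within library series. With 2 ser-5 loxapine libraries, a median interaction error of 0.29 on the log2 scale limits what could be called.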
